A study of Mus musculus with 18 samples.

Results

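The genes described here are the cytosolic ribosomal protein genes of the mouse, in 3 cell fractions sorted from the lateral cortex at embryonic day 14.5. They were taken as the protein-coding rows of the deposited tables whose symbol starts with Rpl, Rps or Rplp followed by a number and, at most, the ending a, x, l or l1. This gave 81 genes of 38250 rows, namely 30 of the small subunit, 43 of the large subunit, the 3 stalk genes Rplp0, Rplp1 and Rplp2, and 5 paralogues (Rpl22l1, Rps27l, Rpl7l1, Rpl3l and Rpl39l). Counts were high enough to test 79 of them. Rpl3l and Rpl39l had 10 and 11 reads over all libraries and were not tested.

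All embryos were C57BL/6 and carried 2 reporters, 1 at Tubb3, which encodes a neuronal tubulin, and 1 at Btg2, which progenitors switch on before they give rise to neurons. The genotype label reads Btg2GFP/Tubb3GFP for every sample, while the titles give the sorted signal as red or green. RFP-negative cells are labelled proliferating progenitors (PP), RFP-positive cells differentiating progenitors (DP) and GFP-positive cells neurons (Neuron). Each fraction had 3 libraries, each from a pool of more than 3 embryos of different litters and sequenced in a single-read and a paired-end run, whose counts were added. PP is thus defined by the absence of the red signal.

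A ribosome consists of a small subunit, which reads the message, and a large subunit, which joins the amino acids, and most of its proteins are present in 1 copy. Cells therefore make these proteins together, and much of the control is at translation, through a pyrimidine tract at the very start of their messages (TOP messages) that is read through mTORC1 signalling. Growing and dividing cells, such as cortical progenitors, make many ribosomes. The mouse genome also holds many processed pseudogenes of these genes, which are near-identical to the spliced messages.

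The start sites of the genes on which the results below turn are shown first, because the tract lies there. RefSeq windows of 300 bases (GRCm38.p6) were matched by symbol for 60 of the 81 genes. The lines give 25 bases before and 15 bases after the annotated start, on the gene's strand, and capitals mark the longest run of at least 8 pyrimidines (C or T) that touches the 10 bases on either side of the start.
Rps18 (chr17:33955651-33955690, minus strand): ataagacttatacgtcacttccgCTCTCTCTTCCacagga
Rpl15 (chr14:18270972-18271011, minus strand): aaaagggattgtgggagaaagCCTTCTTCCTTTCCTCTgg
Rps24 (chr14:24490653-24490692, plus strand): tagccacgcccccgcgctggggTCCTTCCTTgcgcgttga
Rpl18 (chr7:45718046-45718085, plus strand): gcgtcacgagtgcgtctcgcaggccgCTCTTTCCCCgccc
Rpl22l1 (chr3:28805483-28805522, plus strand): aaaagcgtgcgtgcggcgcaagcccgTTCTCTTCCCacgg
Rps27l (chr9:66946061-66946100, plus strand): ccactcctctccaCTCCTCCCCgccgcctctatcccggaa
Rpl12 (chr2:32961687-32961726, plus strand): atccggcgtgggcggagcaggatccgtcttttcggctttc
Rps2 (chr17:24720038-24720077, plus strand): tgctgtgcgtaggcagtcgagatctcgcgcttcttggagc
Rpl5 (chr5:107900503-107900542, plus strand): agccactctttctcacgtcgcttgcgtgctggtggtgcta
In the windows shown, the first 6 have such a run and the last 3 do not. Rps27l and Rps24 each have another window, at another annotated start, without such a run. A gene was counted as having a run or a motif if any of its windows had it. The run of Rps27l ends before the annotated start, and a run of Rpl5 lies just outside the bases counted. The split therefore depends on where the start is annotated. Of the 60 genes, 29 (48.3%) had such a run, against 4259 of all 27025 genes of the RefSeq table (15.8%). On the same windows and both strands, CCGGAAG, the core of an ETS-factor site, was found in 24 of the 60 (40%) and in 9.93% of all genes. AAGATGG, a YY1-type motif, was found in 10 of the 60 (16.7%) and in 7.28% of all genes. TATAAA was found in 7 of the 60 (11.7%) and in 15.7% of all genes. The first 2 motifs can share the letters AAG, and the CTTCC in the reverse complement of the first can belong to a pyrimidine run. A match describes the letters and is not evidence of binding.

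Libraries held 34337209 to 55935128 counts. The summed marker lists followed the sort. Markers of proliferating progenitors lay at 3962 to 4690 CPM (counts per 1000000 of the TMM-scaled total) in PP, 1853 to 2607 in DP and 246 to 320 in Neuron. The 6 neuronal markers present lay at 157.3 to 335.1 CPM in PP, 1703 to 2402 in DP, and 8062 to 8736 among neurons. The 5 markers of differentiating progenitors lay at 1170 to 1205 CPM in PP, 2611 to 3699 in DP and 640 to 719 in Neuron. Of these 5, Neurod1 was not lower in Neuron (152 CPM in DP, 182 in Neuron, adjusted p = 0.333, edgeR). PP libraries also held counts of 11 red blood cell markers, summing to 8367 to 15333 CPM, against 18.5 to 124.8 in DP and 14.0 to 16.5 in Neuron. Markers of interneurons and ventral cells (7 genes) lay at 421 to 454 CPM in Neuron and at 28.9 to 154.96 in DP. Summed markers of 3 other cell types were lowest in Neuron and highest in PP, the order of the ribosomal protein share. Microglia (8 genes) lay at 9.57 to 12.9 CPM in PP, 5.62 to 7.13 in DP and 1.59 to 3.01 in Neuron. Pericytes (5 genes) lay at 26.2 to 49.7, 6.22 to 10.6 and 2.05 to 2.601 CPM in the same order, and meningeal fibroblasts (5 genes) at 13.3 to 92.7, 3.68 to 8.92 and 0.691 to 1.62. Endothelial cells (7 genes) and choroid plexus (3 genes) overlapped between PP and DP and lay at 1.87 to 4.38 and 0.711 to 0.913 CPM in Neuron. No listed marker of these groups was at 0 in any fraction. Their part in the results was not tested. Values given below without the globin genes change only the total to which a share is set.

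The ribosomal protein genes took a smaller part of the RNA in neurons. They held 0.968%, 0.951% and 0.845% of all counts in the PP libraries L222, L355 and L393. In the DP libraries L223, L356 and L394 the share was 0.859%, 0.877% and 0.766%. In the Neuron libraries L224, L357 and L395 it was 0.591%, 0.588% and 0.556%. All 3 Neuron libraries lay below all 6 progenitor libraries. DP and PP overlapped as groups, but within each of the 3 sets of consecutive library numbers (L222 to L224, L355 to L357 and L393 to L395) DP was below PP. With the TMM-scaled total DP was also below PP in each set, at 0.833% against 0.892%, 0.859% against 0.876% and 0.736% against 0.756%. The mean share was 1.44-fold lower in Neuron (0.578% ± 0.0196, SD, n = 3) than in DP (0.834% ± 0.0599), with an exact two-sided permutation p of 0.1, the smallest that 3 against 3 allows, and 0.15 after adjustment over 3 comparisons. DP against PP gave 1.1-fold (p = 0.3, exact permutation), and Neuron against PP 1.59-fold (p = 0.1). Without the globin and mitochondrially encoded genes in the total the ratio of Neuron to DP was 0.694, against 0.693 with all counts. Globin genes held 0.00535% of counts in DP and 0.00129% in Neuron, so leaving them out could hardly move this ratio. In PP they held 1.15%. On the reduced total the ratio of DP to PP was 0.895 and of Neuron to PP 0.622, against 0.905 and 0.628 with all counts. With the TMM-scaled total the ratio of Neuron to DP was 0.809. In these bulk libraries, a lower share per cell and another mixture of cells cannot be told apart.

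**Figure D1:**
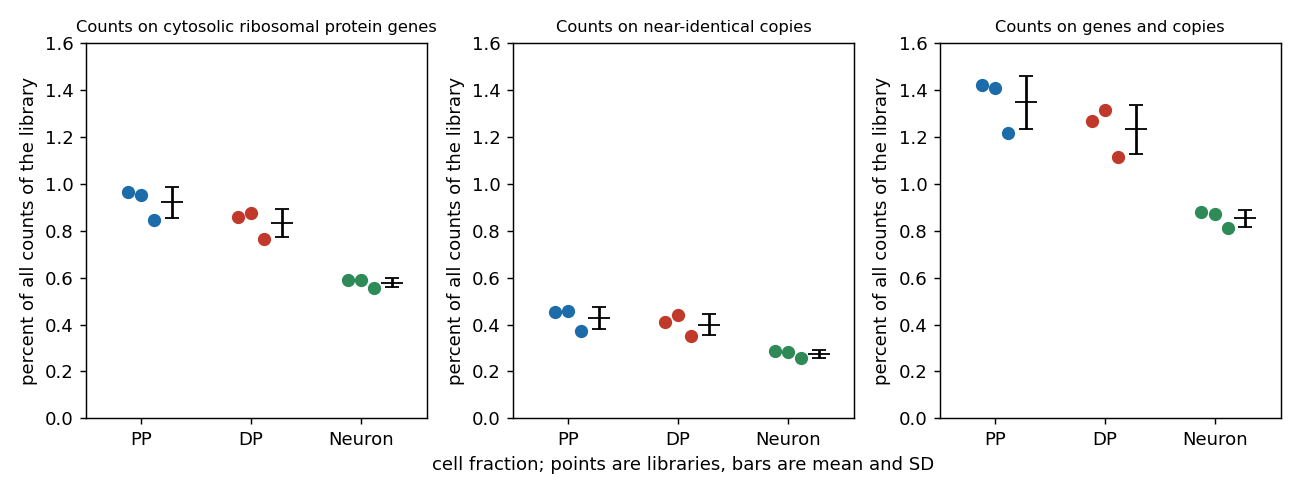
Percent of all counts of a library on the ribosomal protein genes, on rows near-identical to them, and on both, in PP, DP and Neuron. Points are libraries, and bars give the mean and SD. The Neuron points lie between 0.556% and 0.591% for the genes, below all points of PP and DP.

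Neuron against DP compares the cells labelled neurons with those labelled differentiating progenitors. The Neuron fraction also held interneuron and ventral markers, as given above. Of the 79 genes tested, 41 (51.9%) were lower in Neuron and 2 higher, at an adjusted p under 0.05 by the quasi-likelihood test of edgeR, adjusted after Benjamini and Hochberg over 18627 features. Of all features, 34.2% were lower and 33.1% higher. The median log2 fold change of the genes was -0.32, a 1.24-fold decrease, against -0.04 over all features, and 70 of the 79 values were below 0. Libraries of the 2 fractions did not overlap for 43 lower and 2 higher genes, where 36.9% and 35.5% of all features did so. By role, 18 of 30 small subunit genes (60%), 17 of 43 large subunit genes (39.5%), all 3 stalk genes and all 3 tested paralogues were lower. The share of the large subunit genes was near the 34.2% of all features. Their median was -0.24, and 37 of the 43 values were below 0. The 2 higher genes were Rpl15 and Rpl5 of the large subunit. The level of the count depended on the scaling: library totals with no scaling factor gave 66 lower and 1 higher, where 45.5% of all features were lower and 25.2% higher. The median of all features itself moved to -0.26 there (members -0.54), and the difference of the medians was -0.27 with either scaling. A scaling factor shifts all values of a comparison nearly alike. That difference could therefore hardly have changed, and nothing on the choice of scaling is read from it. The same contrast within the 3 sets of library numbers gave medians of -0.25, -0.31 and -0.29, with 67, 72 and 72 of 79 genes below 0. Libraries of a set deviated together from their fraction means across the genes (Pearson r 0.47 to 0.79 over 9 pairs of libraries). Pairs of different sets gave -0.62 to 0.02 (18 pairs). Deviations within a fraction sum to 0, so positive values in a set force negative ones between sets, and the 2 ranges are not independent. With the set as a term, 56 genes (70.9%) were lower, where 37.1% of all features were. Without L355 to L357, 23 (29.1%) were lower, a share at that of all features in the same fit (28.7%), while the median was -0.29 against -0.04 over all features and 71 of 79 values were below 0.

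**Figure D2:**
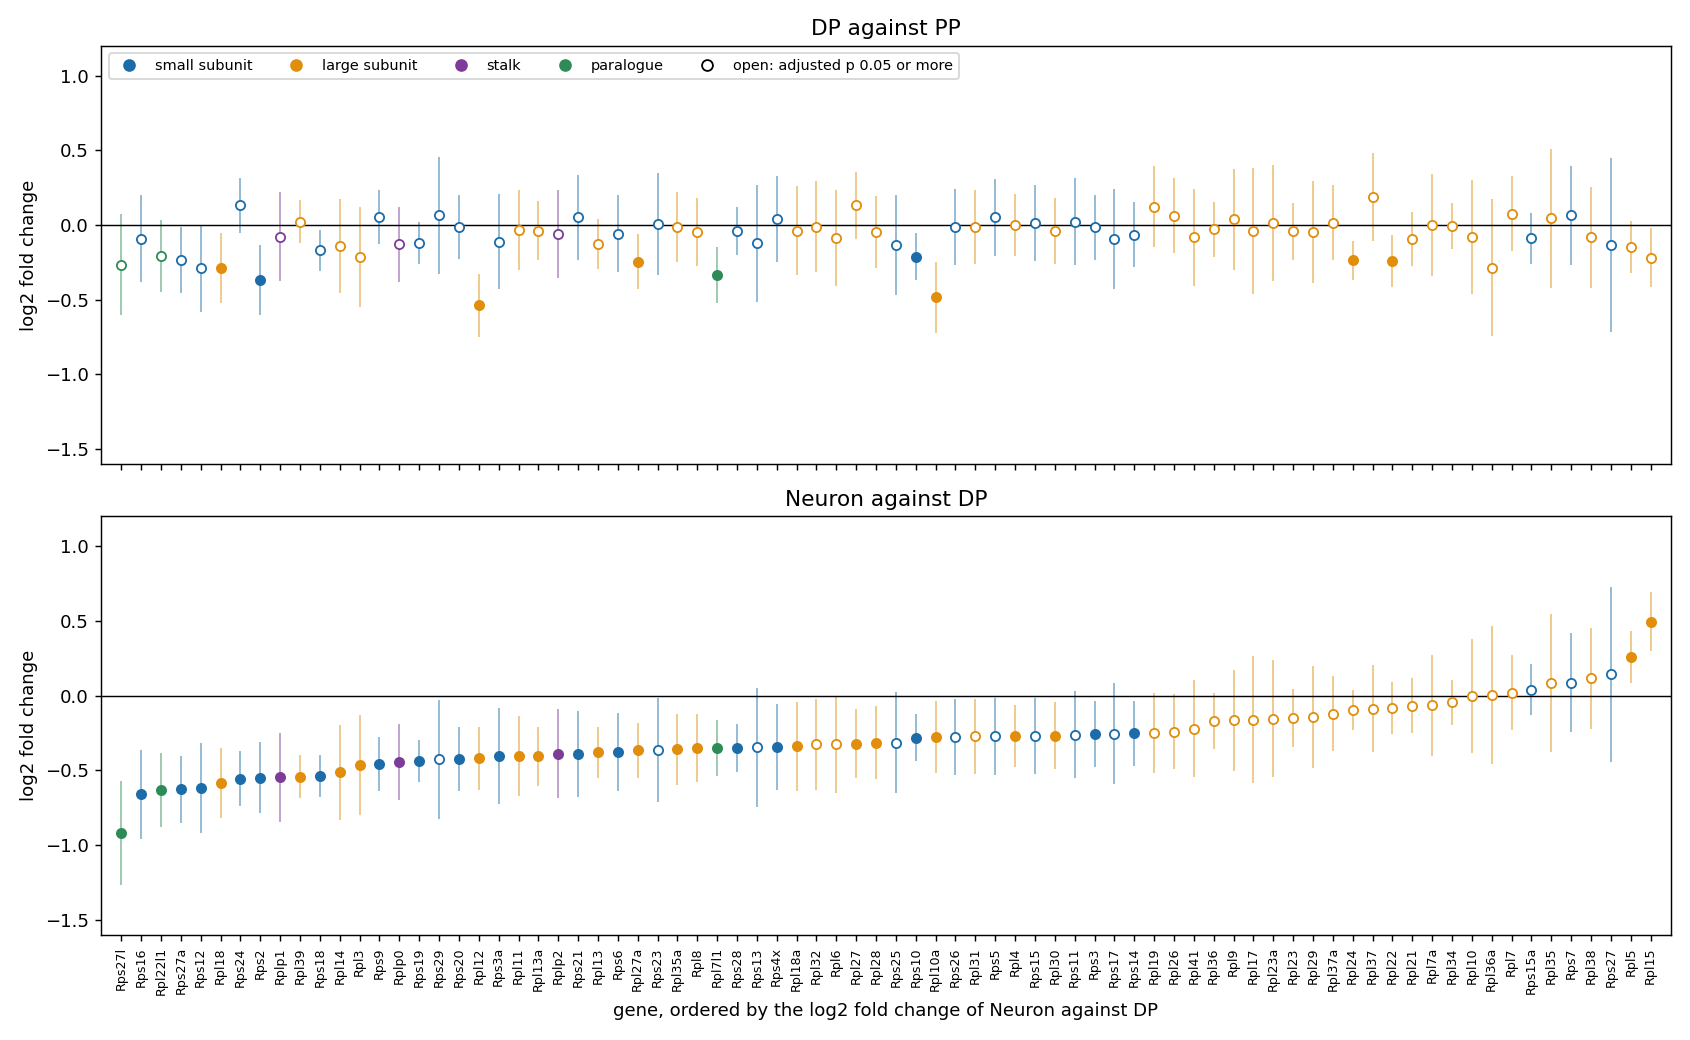
Log2 fold change of 78 of the 79 genes tested, DP against PP above and Neuron against DP below, ordered by the lower panel. Bars are 95% confidence intervals, filled points are past an adjusted p of 0.05 and colours give the role. Most points lie near 0 above (median of the 79 genes -0.05) and below 0 beneath (median -0.32).

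Rps18, a protein of the head of the small subunit (ENSMUSG00000008668, chromosome 17, 34088944 to 34092946, mm9), stood at 92.2, 97.4 and 95.2 CPM in PP, 86.0, 84.5 and 82.9 in DP, then 59.8, 60.4 and 54.1 in Neuron. The fractions did not overlap, in the order PP, DP, Neuron. Neuron was 1.45-fold below DP (log2 -0.54 ± 0.06, SE, adjusted p = 1.24e-05, edgeR). The step from PP to DP was log2 -0.17 ± 0.06 with an adjusted p of 0.0505, which 8 of 25 other settings brought under the threshold, for example RLE scaling at 0.0467. Its exons overlap those of Vps52 on the other strand over 6.26% of their length, and no source used here states whether the counting used the strand.

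The stalk is the part of the large subunit that binds the elongation factors, and all 3 of its genes were lower in Neuron than in DP. Rplp0, its base, stood at 513, 514 and 394.4 CPM in DP and at 375, 348 and 323 in Neuron. Rplp1 stood at 326, 385 and 278 in DP and at 219, 252 and 205 in Neuron. Rplp2 stood at 94.5, 111 and 80.5 in DP and at 69.7, 79.3 and 69.6 in Neuron. In each, every Neuron library lay below every DP library. Neuron was lower than DP by log2 0.44 (1.36-fold) for Rplp0, 0.55 (1.46-fold) for Rplp1 and 0.39 (1.31-fold) for Rplp2, with adjusted p = 0.00473, 0.00374 and 0.0235 (edgeR). The log2 ratio of Rplp1 to Rplp0 was -0.53 ± 0.12 in DP and -0.63 ± 0.16 in Neuron (p = 0.5, exact permutation), and that of Rplp2 to Rplp0 -2.31 ± 0.12 and -2.26 ± 0.15 (p = 0.6).

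Among small subunit genes, those lowest in Neuron by the naming rule were Rps27a, Rps12 and Rps24. Rps27a, which encodes ubiquitin fused to a ribosomal protein, stood at 11.9, 10.1 and 12.3 CPM in DP and at 7.51, 7.52 and 7.16 in Neuron (1.55-fold lower). Rps12 stood at 10.7, 10.8 and 13.9 in DP and at 7.40, 8.25 and 7.26 in Neuron (1.54-fold lower). Rps24, a gene mutated in Diamond-Blackfan anaemia, stood at 101, 118 and 103 in DP and at 74.4, 73.7 and 71.2 in Neuron (1.47-fold lower). All 3 changed past the threshold with no overlap of libraries (adjusted p = 0.000179, 0.0017 and 0.000103, edgeR). Rps2, of the entry side of the message channel (chromosome 17, 24855061 to 24858874, mm9), stood at 139, 135 and 135 in PP, 115, 112 and 89.3 in DP, then 64.3, 82.2 and 69.9 in Neuron. It decreased at both steps, by log2 0.37 and 0.55. Rps15a and Rps7, named after their values were seen, were at log2 0.04 and 0.09 in Neuron against DP and were not past the threshold.

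Rpl18 was the lowest large subunit gene in Neuron against DP by the same rule. It stood at 81.7, 63.3 and 70.5 CPM in DP and at 51.8, 46.0 and 45.8 in Neuron, 1.5-fold lower (adjusted p = 0.000453, edgeR). Rpl8, of the peptidyl transferase region and one of the 3 highest genes by level per length, stood at 569, 622 and 496 in DP and at 454, 454 and 414 in Neuron, 1.28-fold lower (adjusted p = 0.0105). Rpl32, another of the 3 highest, had overlapping libraries (236, 262 and 189 in DP, 193, 194 and 161 in Neuron) and an adjusted p of 0.0561. Level per length is CPM per kilobase of exon and was 612 for Rpl8, 608 for Rplp1 and 414 for Rpl32 over all libraries. Among genes tested, Rps29 was lowest, at 3.7, with Rps27 at 3.95 and Rps6 at 3.96 next. Rpl3l and Rpl39l lay at 0.0157 and 0.0358. Rps29 had a copy row at a far higher level, as given below. The part of reads on copies in the other low values was not tested.

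Rpl15 and Rpl5 were the 2 genes past the threshold with more counts in Neuron than in DP. Rpl15, a protein of the large subunit (chromosome 14, 19100337 to 19103905, mm9), stood at 53.6, 57.9 and 58.4 CPM in PP, 43.5, 49.3 and 53.3 in DP, then 63.0, 68.3 and 74.7 in Neuron. Neuron lay above both progenitor fractions in every library, and DP below PP. It was 1.41-fold higher in Neuron than in DP (log2 0.49 ± 0.09, SE, adjusted p = 0.000411, edgeR), and stayed past the threshold in all 25 other settings tried, at log2 0.27 to 0.59. Against PP it was 1.21-fold higher (adjusted p = 0.0143), a call lost in 5 settings and turned to log2 -0.032 by library totals with no scaling factor. In the authors' deposited table, Rpl15 had a log2 fold change of 0.52 in Neuron against DP. Exons of Rpl5 overlap those of Fam69a on the other strand over 24.3% of their length, and those of Rpl15 overlap Nkiras1 over 4.38%. As for Rps18, whether the counting used the strand is not stated. Rpl5, which with Rpl11 carries the 5S RNA and binds Mdm2, stood at 31.6, 35.0 and 38.0 in DP and at 39.9, 41.6 and 43.8 in Neuron (log2 0.26, adjusted p = 0.0133). With the reads of near-identical copies added, its log2 fold change was -0.036 (adjusted p = 0.662), so the row alone and the row with its copies differ in sign. Rpl11, named after its values were seen, was lower as a row (12.1 CPM in DP, 9.10 in Neuron, adjusted p = 0.0118), with 89.5% of the reads of gene and copies on its copies.

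**Figure D3:**
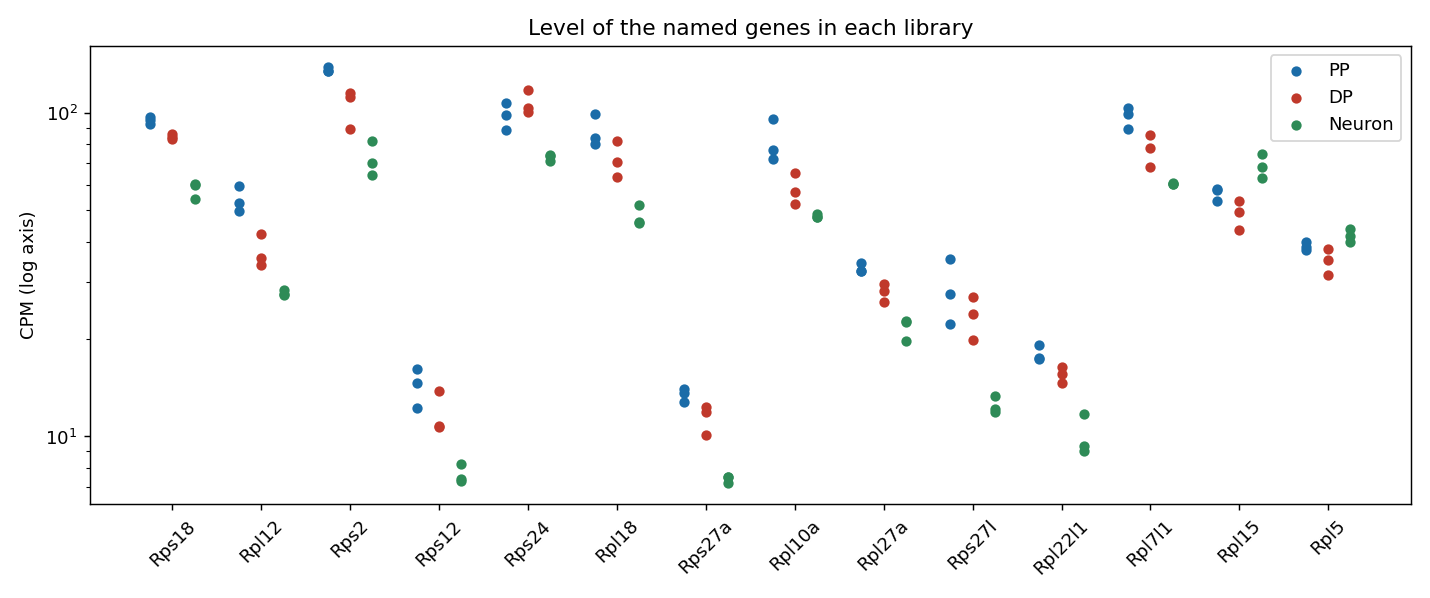
Level in CPM, on a log axis, of 14 named genes in each library of PP, DP and Neuron. Each point is a library. Rpl15 and Rpl5 are the 2 genes in which the Neuron points lie above the DP points, and Rps27l has the widest gap between DP (19.9 to 26.9 CPM) and Neuron (11.9 to 13.4).

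Of the 79 genes tested, the paralogue Rps27l had the lowest value in Neuron against DP. Rps27l, a paralogue of Rps27 that p53 activates in damaged cells (chromosome 9, 66793893 to 66797323, mm9), stood at 35.3, 27.6 and 22.3 CPM in PP, 26.9, 23.9 and 19.9 in DP, then 13.4, 12.2 and 11.9 in Neuron. Neuron was 1.89-fold below DP (log2 -0.92 ± 0.16, SE, adjusted p = 0.000299, edgeR), and PP and DP overlapped. Rpl22l1, a paralogue of the RNA-binding Rpl22, stood at 15.7, 14.6 and 16.4 in DP and at 9.36, 9.04 and 11.7 in Neuron (1.55-fold lower, adjusted p = 0.000337). Rpl22, like Rpl7 named for its paralogue after the values were seen, stood at 187, 194 and 169 in DP and 177, 173 and 169 in Neuron (log2 -0.08, adjusted p = 0.361). The log2 ratio of Rpl22l1 to Rpl22 was -3.56 ± 0.19 in DP and -4.11 ± 0.23 in Neuron, without overlap of libraries (p = 0.1, exact permutation, the smallest possible). Rpl7l1, a paralogue of Rpl7, stood at 85.5, 77.9 and 68.2 in DP and at 60.6, 60.5 and 60.4 in Neuron (1.28-fold lower, adjusted p = 0.00345), while Rpl7 was at log2 0.02 (adjusted p = 0.891).

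Some subunit genes have names outside the pattern and are not among the 81. Rpsa, a small subunit protein also called the laminin receptor, stood at 118, 123 and 107 CPM in DP and at 76.0, 86.4 and 74.0 in Neuron (log2 -0.56, adjusted p = 0.000202, edgeR). Fau, a ubiquitin-like protein fused to a ribosomal protein, was lower by log2 0.31 (adjusted p = 0.0348), with 93.9% of the reads of gene and copies on copies. Gnb2l1, the scaffold RACK1, and Rpl36al, a paralogue of Rpl36a, were at log2 -0.18 and -0.12 and were not past the threshold. Of the 5 genes on this list 2 (40%) were lower and 0 higher (0 also at an unadjusted p under 0.05, and 0 by DESeq2), where 34.2% of all features were lower, so the count of lower genes is near that share.

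DP against PP compares the RFP-positive with the RFP-negative fraction. Btg2 itself averaged 445 CPM in PP, 888 in DP and 169 in Neuron, so it was not off in PP. Here 10 of 79 genes (12.7%) were lower and 0 higher (0 also at an unadjusted p under 0.05, and 0 by DESeq2), where 20.2% of all features were lower and 21.3% higher. Libraries did not overlap for 14 genes lower and 0 higher (24.7% and 25.1% of all features). The median log2 fold change was -0.05, against -0.02 over all features. Among the lowest were Rpl12, Rpl10a, Rps2, Rpl7l1 and Rpl27a. Rpl12, at the base of the stalk (chromosome 2, 32817079 to 32820016, mm9), stood at 49.6, 52.8 and 59.6 CPM in PP, 35.6, 33.8 and 42.3 in DP, then 27.6, 27.4 and 28.4 in Neuron. It was 1.45-fold lower in DP (log2 -0.54 ± 0.10, SE, adjusted p = 0.000933, edgeR) and 1.34-fold lower again in Neuron. Rpl10a, of the mobile arm near the exit site, stood at 71.9, 76.6 and 95.7 in PP and at 56.997, 52.5 and 65.3 in DP (1.4-fold lower, adjusted p = 0.00407). Rpl7l1 was lower in DP by log2 0.34 and Rpl27a by 0.24. Rpl18, Rpl22, Rpl24 and Rps10 were also lower, the last 3 of them outside the naming rule and named after their values were seen. The count was 1 (1.27%) without L355 to L357, where 10.4% of all features were lower, and 17 (21.5%) with the set of library numbers as a term, where 25.4% were. It was 6 (7.59%) when L222, L355, L223, L356 or L357 alone was left out, where 14.9% to 20.0% of all features were lower. With library totals it was 16 (20.3%), where 26.1% of all features were lower and 17.1% higher. With copies added it was 6 (7.59%), where 20.4% of all features were lower. Rpl27a, Rpl18 and Rps10 were not among the 6.

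Neuron against PP, which shares its libraries with both steps, gave 47 lower and 1 higher (Rpl15), where 38.6% of all features were lower and 36.7% higher. Libraries did not overlap for 49 lower and 2 higher genes, against 40.1% and 38.5% of all features. The median was -0.34 against -0.04. With library totals 51.2% of all features were lower and 27.6% higher, and their median was -0.35. Rpl15 was no longer past the threshold without L222 or L395. The largest decreases by the naming rule were Rps27l (2.27-fold), Rpl12 (1.94-fold), Rps2 (1.89-fold), Rps12 (1.88-fold), Rpl18 (1.83-fold) and Rps27a (1.82-fold), all past the threshold and with no overlap of libraries.

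Reads on near-identical copies bear on these levels. A row counted as a copy of a gene if it shared 20% of its 30-base windows with the gene's messages as a pseudogene, or 60% as another kind of row. There were 440 such rows, 431 of them with reads, and they held 1455230 reads against 3071076 on the 81 genes. In 30 genes the copies held more reads than the gene. The rows named here were chosen after their values were seen. The row Rps16-ps2 averaged 124 CPM in PP, 121 in DP and 85.7 in Neuron, against 6.49, 6.11 and 3.86 for Rps16. The row Gm14303 stood at 187 CPM in DP, while Rps29, to which all its windows belong, stood at 2.85. These levels are therefore those of rows and not of genes. Across the 81 genes, the percent of 30-base windows shared with other transcripts had a Spearman rho of -0.14 with level per length. The share of counts on copies was 1.45-fold lower in Neuron than in DP (p = 0.1, exact permutation), beside 1.44-fold for the genes. Of 203 copies tested, 54 (26.6%) were lower and 4 (1.97%) higher in Neuron against DP, both shares under those of all features (34.2% and 33.1%), with a median of -0.33 against -0.04 over all features. When copy reads were added to each gene, an alternative chosen after seeing the data, 43 genes (54.4%) were lower and 1 (1.27%) higher. Of all features in that fit, 34.5% were lower and 33.3% higher. Of the 43 lower genes, 37 were shared with the 41. Gained were Rps13, Rpl9, Rpl6, Rps23, Rps25 and Rpl36, and lost were Rps14, Rps4x, Rpl30 and Rps3a.

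**Figure D4:**
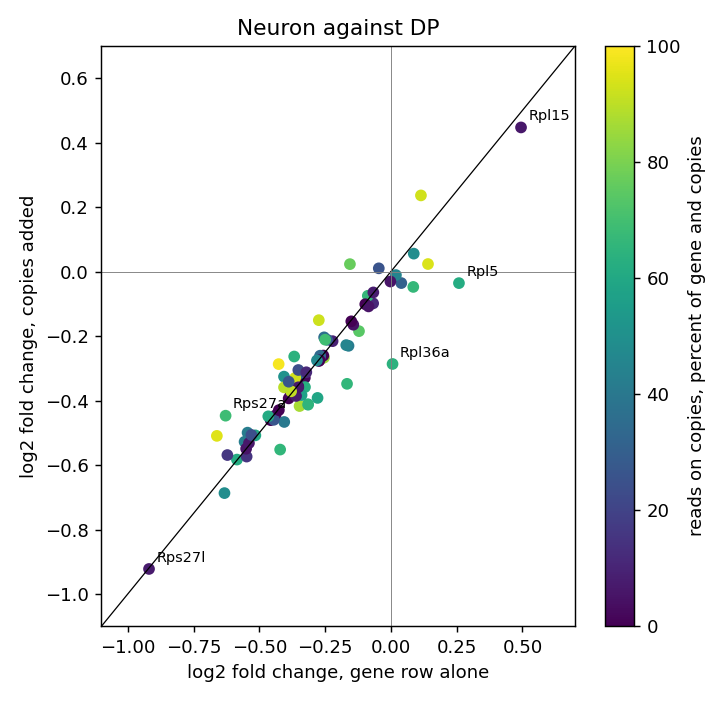
Log2 fold change of Neuron against DP for each gene row alone (horizontal axis) and with the reads of near-identical copies added (vertical axis), for 79 genes. Colour gives the percent of the reads of gene and copies that lie on copies, and the line marks equal values. Most genes lie near the line, Rpl15 stays above 0 and Rpl5 moves from 0.26 to -0.036.

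Genes that make or use ribosomes were compared by lists, and no list was tested against another. In Neuron against DP, the shares stand beside 34.2% of all features lower and 33.1% higher. Of 94 assembly factors, 50 (53.2%) were lower and 9 (9.57%) higher. In DP against PP, 33 of them (35.1%) were lower and 1 higher, where 20.2% of all features and 12.7% of the ribosomal protein genes were lower. Ltv1, a late assembly factor of the small subunit, stood at 44.0, 23.9 and 12.6 CPM in PP, DP and Neuron, and Dkc1, the pseudouridine synthase of the small nucleolar RNPs, at 79.9, 57.7 and 28.9. The other lists are given for Neuron against DP. Of 16 RNA polymerase I genes, 9 (56.2%) were lower and 3 (18.8%) higher; Polr1a, its largest subunit, was at log2 -0.74 and Polr1d at 0.86. Of 41 initiation factors, 13 (31.7%) were lower, near the share of all features, and 5 (12.2%) higher. Of 16 elongation and release factors, 3 (18.8%) were lower and 4 (25%) higher, both under the shares of all features, with Eef1a2, the neuronal and muscle form of the elongation factor, rising from 0.704 to 70.0 CPM. Among 22 other TOP messages, 10 (45.5%) were lower and 1 higher; Nap1l1, a histone chaperone, was at log2 -0.87 and Pabpc1, the poly-A binding protein, at -0.60. Of 30 genes of growth control, 12 (40%) were higher and 8 (26.7%) lower; Eif4ebp1, a repressor of cap-dependent translation, stood at 3.75 CPM in DP and 0.66 in Neuron, while Myc, a driver of ribosome synthesis, stood at 13.8 and 69.2. Of 76 mitochondrial ribosomal proteins, 30 (39.5%) were lower and 10 (13.2%) higher, with Mrpl13 at log2 -1.14.

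**Figure D5:**
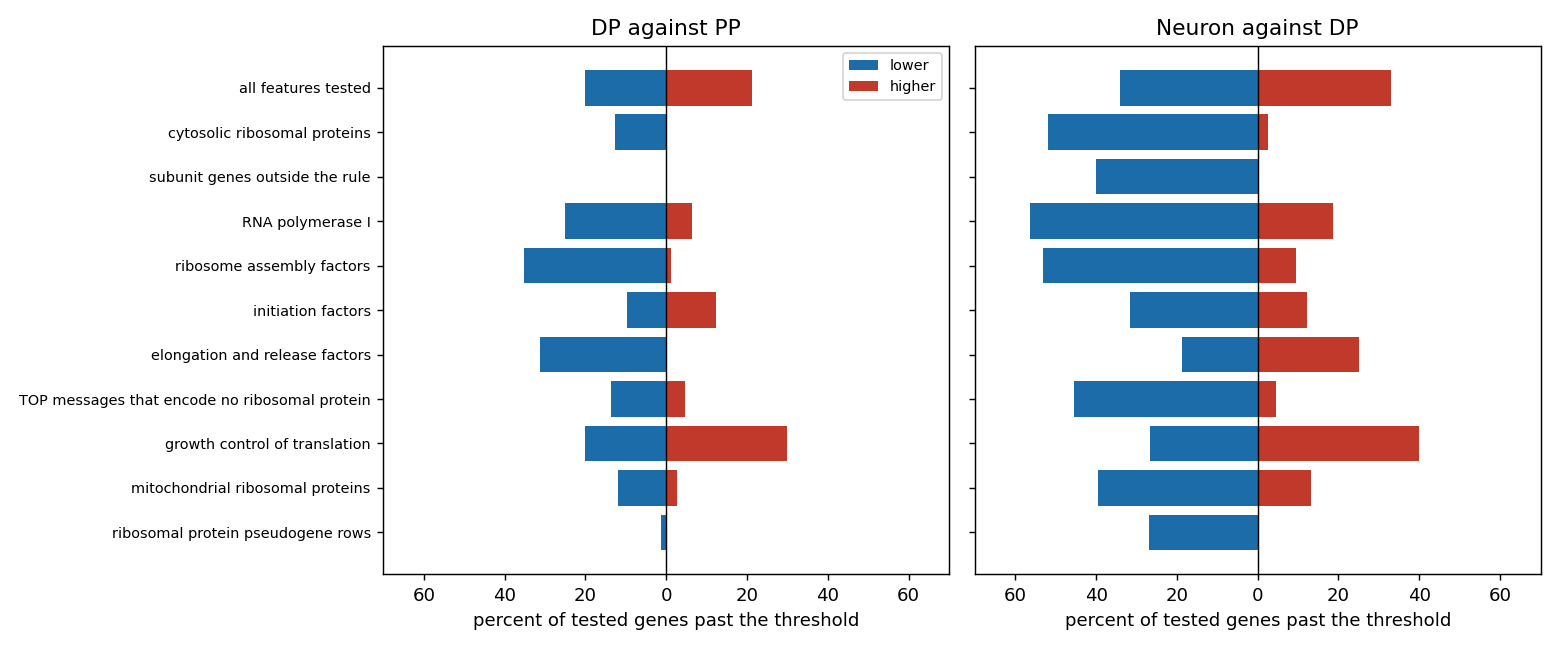
Percent of tested genes past an adjusted p of 0.05, lower to the left and higher to the right, for all features, the ribosomal protein genes and the other lists, in both steps. In Neuron against DP the ribosomal protein genes have 41 lower and 2 higher of 79, where 34.2% and 33.1% of all features are lower and higher, and in DP against PP 10 lower and 0 higher, where these shares are 20.2% and 21.3%.

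The pyrimidine run at the start sites was set beside the values. In Neuron against DP, 34.2% of all features were lower, with a median log2 fold change of -0.04. The 29 genes with a run and tested had a median of -0.36 and 18 were lower. The 29 without had a median of -0.28 and 13 were lower. Both sets ranged widely, from -0.92 to 0.49 and from -0.66 to 0.26, and Rpl15, the highest, has a run of 17 pyrimidines at its start. For CCGGAAG the medians were -0.28 with the motif (23 genes, 10 lower) and -0.35 without (35 genes, 21 lower). For AAGATGG they were -0.18 with the motif (10 genes, 4 lower) and -0.32 without (48 genes, 27 lower). No sets were tested against each other, and no difference is read from them.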

How the data were processed

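The authors deposited whole-number counts per gene for 18 runs of 9 libraries, on Ensembl release 67 gene models, per the file headers. Without role or order, the build mm9 and the tools TopHat2 2.0.10, Bowtie2 2.2.1, featureCounts 1.4.4, and DESeq2 1.4.5 are named in the submitters' processing notes. The deposited comparison tables hold a normalised signal per library, which equalled the added counts over a size factor in 159605 of 159606 values of DP and PP (tolerance 0.06), and the authors' log2 fold changes with their p-value and adjusted p. 12 further columns of these tables were not used. Columns carry library numbers that no label gives, so each was tied to its group only.

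Counts of both runs were added and tested with edgeR 4.0.16 (R 4.3.3): TMM scaling, filterByExpr, a quasi-likelihood test on all 9 libraries with only the group in the model, and Benjamini-Hochberg adjusted p-values over 18627 features, called at 0.05. DESeq2 1.42.0 was an alternative. CPM uses the TMM-scaled total. Replicates are biological per the series design, that is, different pools of embryos. Libraries held 34337209 to 55935128 counts, and counting error is relatively larger for rows with few reads. Near-identical copies were found by 30-base windows shared with GENCODE M21 transcripts (GRCm38), matched by Ensembl identifier. The edgeR fit was tested on simulated counts for DP against PP, with far fewer genes changed than in these data. Deviations shared by a set of libraries were not simulated, and the other steps were not tested in this way. Named genes were Rps18, the paralogues, the subunit genes outside the pattern, the 3 highest and lowest by level per length, and, per comparison, up to 6 highest and 6 lowest past the threshold with no overlap of libraries and at least 10 CPM in the higher group; from each other list the 2 largest changes qualified. The members and lists were chosen with earlier results of these data known. An RLE scaling, other filters, single runs, left-out libraries and 5 alternatives chosen after seeing the data were tried. Some results of the naming rule are not reported here.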

Additional observations from a re-analysis of the deposited data

How the results depend on the processing

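The share of counts differed by -0.256 percentage points for Neuron against DP and -0.343 for Neuron against PP; with the TMM-scaled total these were -0.155 and -0.187, and with copies added -0.379 and -0.495. For DP against PP, 10 genes were lower, with 16 by library totals and 17 with the set of library numbers as a term. Without a filter on low counts 6 (7.41%) were lower, where 13.3% of all features were. With copies added 6 (7.59%) were lower, where 20.4% of all features were. Without libraries L222 to L224, L355 to L357 and L393 to L395, 6, 1 and 6 were lower. Of all features 18.3%, 10.4% and 12.1% were lower in those fits. Without L222 to L224, 1 gene was higher, where 20.9% of all features were. Leaving out 1 library at a time gave 6 to 9 lower (7.59% to 11.4%), the 6 without L222, L355, L223, L356 or L357. Of all features, 14.9% to 20.0% were lower in those fits. For Neuron against DP, 41 lower became 66 by library totals and 23 without L355 to L357. When 1 library was left out, 29 to 46 (36.7% to 58.2%) were lower, where 30.8% to 34.1% of all features were. The 2 higher genes became 1 by upper quartile scaling, library totals, copies added and without L355 to L357. Of all features 30.3%, 25.2%, 33.3% and 28.2% were higher in those fits. When 1 library was left out, 1 or 2 were higher, the 1 without L395 (30.7% of all features). For Neuron against PP, 1 higher became 0 by upper quartile scaling, library totals and without L355 to L357, and 2 with single-read runs alone. Of all features 33.0%, 27.6%, 32.8% and 37.4% were higher in those fits. When 1 library was left out, 0 or 1 gene was higher, the 0 without L222 (35.7% of all features) or L395 (34.9%). The 47 lower ranged from 36 to 50 (45.6% to 63.3%) there, where 36.0% to 38.5% of all features were lower. Rpl5 turned to log2 -0.036 in Neuron against DP with copies added, and Rpl15 to -0.032 in Neuron against PP with library totals. The cause was not tested. Of 1097 values for 44 gene results, 997 kept their side of the threshold and their direction. Upper quartile scaling put the median of all features at log2 -0.07, -0.11 and -0.16 in DP against PP, Neuron against DP and Neuron against PP, and library totals at -0.10, -0.26 and -0.35. No paired analysis was possible by the replicate numbers of the labels because the count columns carry none; the set of library numbers as a term, given above, is a block read from the column names.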
